A study of Homo sapiens with 6 samples.

Results

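Autophagy machinery genes are the 45 genes whose products build, load and close the autophagosome or bring cargo to it. They were picked by symbol from a list of core autophagy genes and autophagy receptors, with no measured value in the rule, and all 45 of 45 were found among the 14959 genes of the expression table. The RNA came from UM-SCC1, a human cell line long established from squamous carcinoma of the head and neck, and 3 libraries were made from cells given miR-204-5p mimics and 3 from cells given control mimics. Mimics are short synthetic RNAs that the cell loads as it loads a mature miRNA, and the study's general transfection methods give 48 h of culture. No other treatment or genetic change separated the groups, and both were made in the same single line. Levels are given in FPKM, the fragments counted for each kilobase of transcript and each 1e6 mapped fragments (1e6 is written M). The question was which of these genes differed in RNA level between cells given miR-204-5p and cells given control mimics.

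Macroautophagy starts when the ULK1 kinase complex switches on a class III phosphatidylinositol 3-kinase complex, whose lipid product recruits WIPI proteins to a growing membrane. ATG9A vesicles and the lipid transfer proteins ATG2A and ATG2B supply that membrane, and 2 ubiquitin-like conjugation systems attach ATG8 proteins (the LC3 and GABARAP families) to it. Cargo receptors such as SQSTM1 and NBR1 bind ubiquitin and ATG8 proteins, and SNAREs such as STX17 join the closed vesicle to the lysosome. In squamous carcinoma cells, as in other epithelial cells, the pathway is known for recycling cell constituents when nutrients or growth signals fall. A miRNA finds its targets mainly through its seed, bases 2 to 8 at the 5' end, which pairs with matching bases in the 3'UTR of an mRNA.

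The seed and the matches that bear on the results are printed here because the rule that defined the gene list singled out MAP1LC3B as a miR-204 target described elsewhere. Mature miR-204-5p comes from MIR204 (chr9:70810031-70810052, minus strand, GRCh38.p14, sequence from RefSeq), and its seed is in capitals. The reference holds the same seed in 1 other mature human miRNA, hsa-miR-211-5p.
hsa-miR-204-5p: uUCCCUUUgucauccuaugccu

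Matches were sought on the transcribed strand only, in the longest annotated protein-coding 3'UTR of each gene in GENCODE 29. An 8mer is AAAGGGAA, a 7mer-m8 is AAAGGGA and a 7mer-A1 is AAGGGAA. The 8mer contains both shorter forms, so each site was counted in its strongest class and each gene in the class of its strongest site. Of the 45 members, 13 (28.9%) held a match of at least 7 bases, against 27.1% of the 14664 genes of the table with an annotated 3'UTR. The median 3'UTR was 1442 bases among members and 1252 bases among those genes. An 8mer was present in RB1CC1, GABARAPL2, NBR1 and ATG7, which is 8.89% of members against 8.60% of genes. The 7mer-m8 was the strongest match in ATG2B, MAP1LC3B, MAP1LC3B2, ATG12, ATG10 and ATG9A, and the 7mer-A1 in PIK3C3, TOLLIP and WIPI2.

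The sites of MAP1LC3B, of its near-identical paralog and of the 5 site-bearing members that changed are shown 5' to 3', with the match in capitals and up to 11 flanking bases on each side. The site of MAP1LC3B lies in exon 4 of 4, 55 bases into the 3'UTR (chr16:87403152-87403158, plus strand, GRCh38). MAP1LC3B2 has its site in exon 2 of 2 (chr12:116576376-116576382, plus strand). GABARAPL2 has its 8mer in exon 3 of 3 of the transcript with the longest 3'UTR (chr16:75577674-75577681, plus strand). NBR1 carries an 8mer in exon 21 of 21 (chr17:43210865-43210872, plus strand) and 2 more 7mer-A1 matches in the same exon. In ATG9A the match is in exon 15 of 15, 11 bases from the end of the 3'UTR (chr2:219219391-219219397, minus strand). WIPI2 has a 7mer-A1 in exon 13 of 13 (chr7:5232192-5232198, plus strand). ATG7 has an 8mer in exon 19 of 19 (chr3:11556658-11556665, plus strand) and a 7mer-m8 further on, both outside the shorter transcript on which the table lists the gene.
MAP1LC3B: ccaaggaaaaaAAAGGGAtgttaccaact
MAP1LC3B2: caaggaaaaaaAAAGGGAtgttaccaact
GABARAPL2: gtattaaagtgAAAGGGAAggtgatgcatt
NBR1: tcccgttatttAAAGGGAAaagtaaattta
ATG9A: acccttaataaAAAGGGAgtttgaccaga
WIPI2: gttacggatagAAGGGAAaaggcaaaaac
ATG7: attacaataggAAAGGGAAaaattaaatag

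The 6 libraries are alike in depth, with an inferred 13.1 to 16.4 M fragments each and overlapping ranges between the groups. Spearman correlations of FPKM over all genes were 0.990 to 0.991 within a group and 0.973 to 0.976 between groups. All 8 squamous epithelial markers fixed for the check were present. Their summed level was 516 to 618 FPKM with miR-204-5p mimics and 705 to 735 FPKM with control mimics. Single markers moved both ways at a limma adjusted p under 0.05. KRT5, KRT14, TP63, EPCAM and DSG3 were lower, with log2 fold changes of -1.01 to -0.21. CDH1 (0.39) and KRT6A (0.81) were higher, and KRT17 did not pass. The sum moved with the groups, and its part in the results below was not tested. Endothelial markers reached at most 0.498 FPKM in any library, and the leukocyte markers PTPRC and CD3E at most 0.850 FPKM. CD14 at 11.8 to 16.6 FPKM and CD68 at 8.68 to 11.7 FPKM, also listed as leukocyte markers, were detected. All libraries came from the cultured UM-SCC1 line, and which cells held this RNA was not tested. The sum of these 4 leukocyte markers was 21.7 to 24.4 FPKM in the treated libraries and 26.7 to 27.9 FPKM in the controls, CD14 fell by 0.37 (limma adjusted p = 0.00407), and their part in the results was not tested. Of 6 fibroblast markers, 4 were in the table and only COL1A1 averaged at least 1 FPKM. The table lists genes, and no row is named MIR204, so uptake of the mimics cannot be read from it. The labels number the libraries but do not say that they came from separate cultures, so p-values measure the spread between these 6 libraries. Fewer cells and less RNA per cell cannot be told apart in bulk RNA.

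All 45 members had a value above 0 in every library, and 43 averaged at least 1 FPKM. Their mean levels with control mimics ran from 0.142 FPKM for MAP1LC3A to 118 FPKM for SQSTM1, with a median of 13.0 FPKM against 5.70 FPKM over all genes. Levels were compared as log2(FPKM + 1) with limma over all 14959 genes, and a gene was called at a Benjamini-Hochberg adjusted p under 0.05. Fold changes below are on that scale, are miR-204-5p mimics over control mimics, and understate the change of genes near 1 FPKM. Of the 45 members, 15 were called, which is 33.3% against 40.8% of all genes and 47.8% of genes that averaged at least 1 FPKM, so no excess of calls was seen among them. Lower calls numbered 9 members (20.0%, against 16.8% of all genes and 20.1% of genes that averaged at least 1 FPKM). Higher calls numbered 6 (13.3%, against 23.9% and 27.7%). With libraries rescaled by the median of ratios, 11 members were lower and 5 higher, and over all genes 3032 and 3019. The groups did not overlap in 23 members (51.1%), against 53.6% of all genes. The median log2 fold change was -0.022 for members and 0.032 for all genes, and the median size without sign was 0.17 and 0.18. The list therefore moved in both directions, and calls were found in 7 of the 9 roles.

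**Figure D1:**
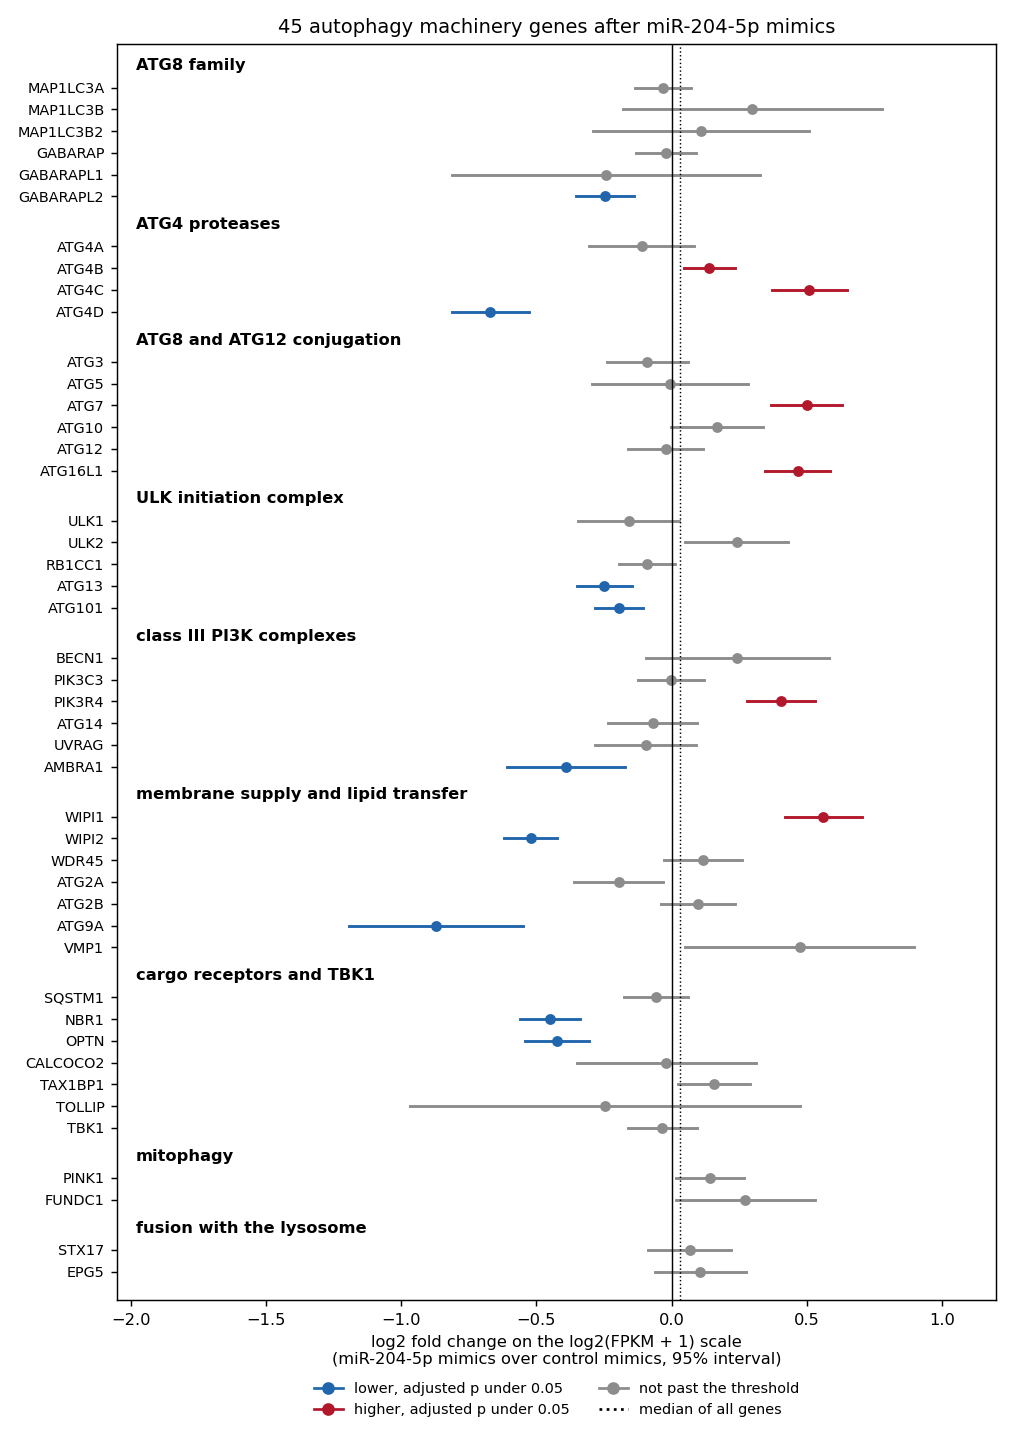
Log2 fold change on the log2(FPKM + 1) scale (horizontal axis) of each of the 45 members, grouped by role, with 95% intervals from limma and 3 libraries a group. The 9 lower members reach -0.87 (ATG9A), the 6 higher members reach 0.56 (WIPI1), and calls in both directions occur among the ATG4 proteases, the class III PI3K genes and the membrane genes.

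Membrane supply held both ends of the range. ATG9A, the scramblase whose vesicles seed the autophagosome membrane, and WIPI2, which reads phosphatidylinositol 3-phosphate and recruits ATG16L1, fell, while WIPI1, a related lipid-binding protein, rose. ATG9A measured 10.3, 7.45 and 10.6 FPKM with miR-204-5p mimics and 19.6, 16.3 and 18.1 FPKM with control mimics. Every treated library was below every control library. The ratio of mean levels was 0.525, with a log2 fold change of -0.87 (SE 0.13, limma adjusted p = 0.00291). The transcript listed for ATG9A is annotated as a target of nonsense-mediated decay, and 49.5% of its bases are shared on the same strand with AC068946.2, which averaged 1.09 FPKM with miR-204-5p mimics and 2.05 FPKM with control mimics (log2 fold change -0.56, limma adjusted p = 0.186). How fragments were divided between the genes was not tested.

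The levels of WIPI2 were 22.8, 21.5 and 21.4 FPKM with miR-204-5p mimics and 31.2, 31.7 and 32.7 FPKM with control mimics. The groups are well apart, with a ratio of 0.687 and a log2 fold change of -0.52 (SE 0.04, limma adjusted p = 0.000239). WIPI1 measured 16.6, 19.0 and 18.4 FPKM with miR-204-5p mimics against 12.3, 11.9 and 11.5 FPKM with control mimics. All treated libraries were the higher ones, with a ratio of 1.52 and a log2 fold change of 0.56 (SE 0.06, limma adjusted p = 0.000713). The table lists WIPI1 on a nonsense-mediated decay transcript of 624 bases, 68.1% of which lies opposite exons of ARSG on the other strand. ARSG, a lysosomal sulfatase, also rose by 0.42 (limma adjusted p = 0.0186), at 1.65 FPKM against 0.966 FPKM with control mimics. Whether the counting used strand is not given in the sources used here, so reads of the pair cannot be told apart.

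Of the other 4 genes of this group, none passed the threshold. VMP1, an endoplasmic reticulum scramblase, averaged 36.5 ± 10.4 FPKM in the treated libraries and 25.4 ± 0.98 FPKM in the controls (SD, n = 3 each). A single treated library, replicate 2 at 48.4 FPKM, stood above the other two at 32.1 and 29.2 FPKM, although the groups did not overlap. The log2 fold change was 0.47 with limma adjusted p = 0.0737, and it was 0.26 and called (limma adjusted p = 0.0272) once that library was left out. ATG2A gave -0.20 (limma adjusted p = 0.0593) and its paralog ATG2B 0.10 (limma adjusted p = 0.220). WDR45, the WIPI4 protein, gave 0.12 (limma adjusted p = 0.174), and 52.9% of its listed bases are shared on the same strand with PRAF2, which rose by 0.87.

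Of the 5 initiation genes, 2 (40.0%) were called lower and 0 higher, against 16.8% and 23.9% of all genes. Among genes averaging at least 1 FPKM, 20.1% were lower and 27.7% higher, and no test of the group was run. The ULK complex holds the kinases ULK1 and ULK2, the scaffold RB1CC1 (FIP200) and the subunits ATG13 and ATG101, which bind each other. ATG13 measured 18.9, 19.7 and 19.7 FPKM with miR-204-5p mimics and 22.6, 24.1 and 23.1 FPKM with control mimics. ATG101 measured 23.1, 22.5 and 23.5 FPKM against 26.0, 26.5 and 27.0 FPKM. In neither gene did the groups overlap. The log2 fold change was -0.25 for ATG13 (SE 0.04, limma adjusted p = 0.00428) and -0.20 for ATG101 (SE 0.04, limma adjusted p = 0.00647), so both partners of that pair fell by a similar, small amount. ATG13 is listed on a transcript of 624 bases, 52.7% of which lies opposite HARBI1 exons on the other strand, and HARBI1 gave 0.23 (limma adjusted p = 0.224).

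The 2 kinases did not pass, with ULK1 at -0.16 (limma adjusted p = 0.152) and ULK2 at 0.24 (limma adjusted p = 0.0513). ULK2 was higher in every treated library, at 4.69, 5.55 and 4.76 FPKM against 4.10, 4.33 and 3.81 FPKM. RB1CC1, one of the 4 members with an 8mer match, measured 22.7, 22.9 and 22.6 FPKM with miR-204-5p mimics and 23.3, 25.4 and 24.1 FPKM with control mimics. It was lower in each treated library by little, with a log2 fold change of -0.09 (95% interval -0.19 to 0.01, limma adjusted p = 0.142).

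In the class III PI3K group, AMBRA1 fell and PIK3R4 rose. AMBRA1 is a scaffold that links Beclin 1 to ubiquitin ligases, and it measured 5.95, 5.53 and 6.54 FPKM with miR-204-5p mimics and 8.03, 9.17 and 7.39 FPKM with control mimics. The groups were separate, with a log2 fold change of -0.39 (SE 0.09, limma adjusted p = 0.0149). The call was lost without replicate 2 of the miR-204-5p mimics (-0.34, limma adjusted p = 0.0511). PIK3R4 encodes VPS15, the regulatory subunit common to both forms of the complex, and it measured 9.47, 9.32 and 9.01 FPKM against 6.98, 6.43 and 6.87 FPKM. Each treated library exceeded each control library, with a log2 fold change of 0.40 (SE 0.05, limma adjusted p = 0.00148).

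The catalytic subunit PIK3C3 (VPS34) was near 1.33 FPKM in both groups, with a log2 fold change whose 95% interval ran from -0.12 to 0.12 (limma adjusted p = 0.982). It holds 2 7mer-A1 matches at the far end of its 3'UTR. BECN1 gave 0.24 (limma adjusted p = 0.221), with 37.6% of its listed bases opposite CNTD1 exons. ATG14 and UVRAG, which define the early and late forms of the complex, gave -0.07 and -0.10 (limma adjusted p = 0.452 and 0.365).

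Among the ATG4 proteases, which trim ATG8 proteins before lipidation and remove them afterwards, ATG4D fell while ATG4C and ATG4B rose. ATG4D measured 10.9, 9.73 and 10.5 FPKM with miR-204-5p mimics and 17.9, 17.2 and 16.2 FPKM with control mimics. Its groups were far apart, with a ratio of 0.606 and a log2 fold change of -0.67 (SE 0.06, limma adjusted p = 0.000366), and no seed match of 7 bases was found in its longest 3'UTR. ATG4C measured 8.31, 8.24 and 7.55 FPKM against 5.27, 5.52 and 5.26 FPKM. No library of the 2 groups overlapped, with a log2 fold change of 0.51 (SE 0.06, limma adjusted p = 0.000904).

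ATG4B, the main processing enzyme of the family, showed the smallest called change. It measured 16.7, 17.1 and 17.2 FPKM with miR-204-5p mimics and 14.99, 15.7 and 15.3 FPKM with control mimics. The groups did not overlap, and the log2 fold change was 0.14 (SE 0.04, limma adjusted p = 0.0314). That call was lost in 10 of 13 alternative settings, each single library left out among them, with limma adjusted p-values up to 0.130. ATG4A gave -0.11 (limma adjusted p = 0.317).

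Of the 6 conjugation genes, 2 (33.3%) were called higher and 0 lower, against 23.9% and 16.8% of all genes. Among genes averaging at least 1 FPKM, 27.7% were higher and 20.1% lower. The 2 that rose are listed on short transcripts, with 19.6% (ATG7) and 14.0% (ATG16L1) of the bases of the longest. ATG7, the E1-like enzyme that activates both ATG8 proteins and ATG12, measured 6.44, 6.04 and 6.28 FPKM with miR-204-5p mimics and 4.03, 4.11 and 4.27 FPKM with control mimics. Higher values in all treated libraries gave a ratio of 1.51 and a log2 fold change of 0.50 (SE 0.05, limma adjusted p = 0.000803). ATG16L1, which places the conjugation complex on the membrane, measured 8.75, 9.04 and 8.54 FPKM against 6.13, 5.94 and 6.18 FPKM. Its groups were separate too, with a log2 fold change of 0.46 (SE 0.05, limma adjusted p = 0.000699).

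The E2-like enzyme ATG3 gave -0.09 (limma adjusted p = 0.293), and ATG5 and ATG12, which are joined to each other, gave -0.01 and -0.02 (limma adjusted p = 0.971 and 0.784). ATG10, the E2-like enzyme that joins them, averaged 0.797 ± 0.11 FPKM in the treated libraries and 0.601 ± 0.10 FPKM in the controls (SD, n = 3 each). Its groups did not overlap, and at this level 11.4 to 20.4 inferred fragments stand behind a value. The log2 fold change was 0.17 (limma adjusted p = 0.108).

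**Figure D2:**
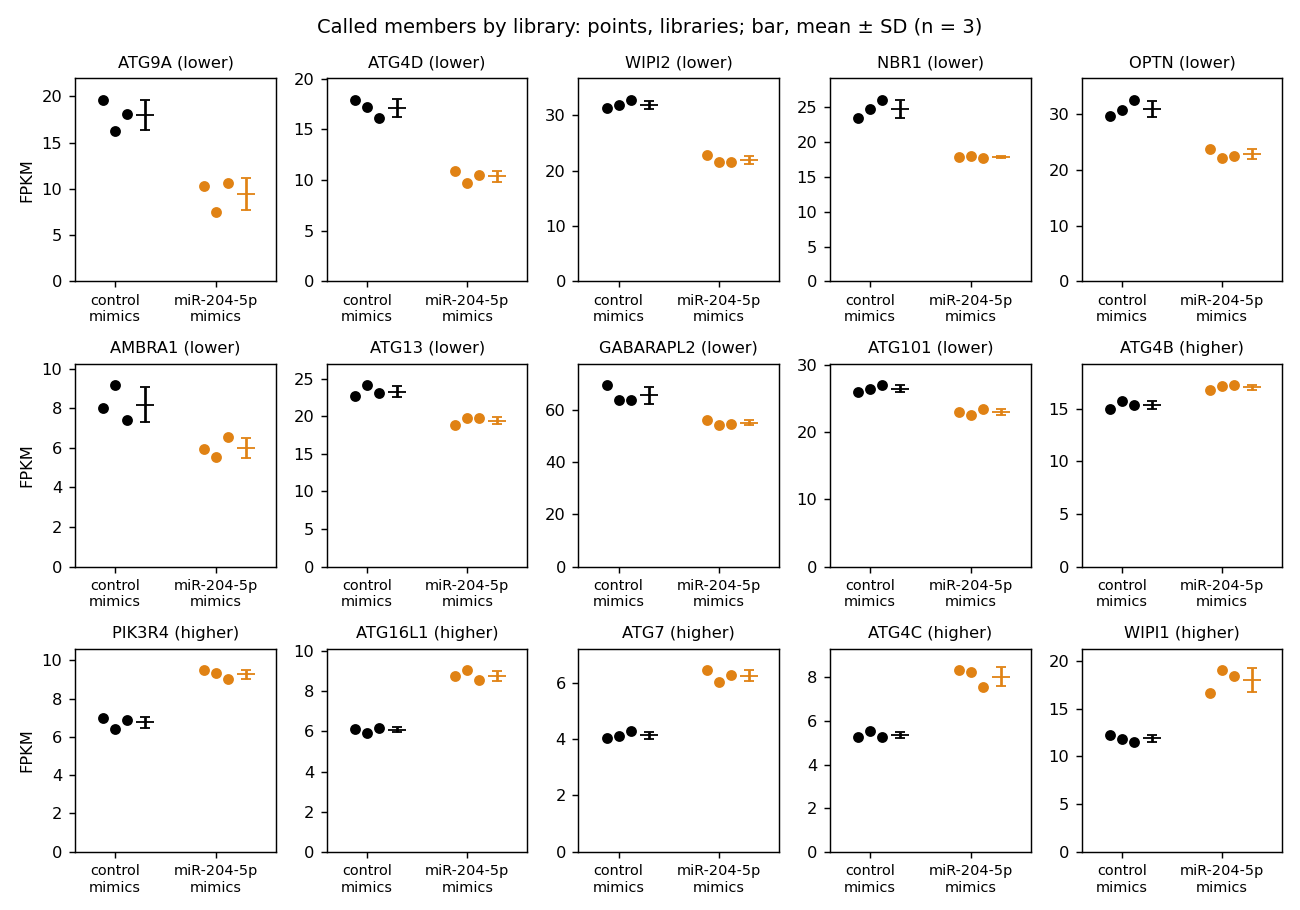
FPKM in each library (points, vertical axes from 0) with the mean and SD (bars, n = 3) of the 15 called members, ordered from the most negative to the most positive log2 fold change. In each of the 15 genes the miR-204-5p libraries and the control libraries do not overlap, and ATG4B has the narrowest gap relative to its level. The calls used these same libraries, so the separation adds nothing to them, and 53.6% of all genes do not overlap either.

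Levels of the ATG8 family spanned from 0.142 to 65.5 FPKM with control mimics. GABARAPL2 (GATE-16) was the highest at 65.5 ± 3.3 FPKM and GABARAP followed at 58.0 ± 2.0 FPKM (SD, n = 3), with separate ranges. MAP1LC3B at 17.0 ± 2.9 FPKM and GABARAPL1 at 14.7 ± 5.7 FPKM overlapped between control libraries and cannot be ordered there. MAP1LC3B2 at 1.83 ± 0.33 FPKM and MAP1LC3A at 0.142 ± 0.028 FPKM were lowest, each below the next gene in every library. In the treated libraries GABARAPL2 and GABARAP overlapped, at 54.3 to 56.0 and 54.4 to 59.4 FPKM, while MAP1LC3B at 15.4 to 24.8 FPKM was above GABARAPL1 at 10.8 to 13.8 FPKM. FPKM is scaled by length, but each gene carries 1 listed transcript, and that of GABARAPL1 is a nonsense-mediated decay form with 23.7% of the bases of its longest transcript. The listed transcript has 44.1% of the bases of the longest for GABARAPL2 and 100% for GABARAP. Whether the order of these genes holds at other lengths was not tested.

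GABARAPL2 was the only ATG8 gene called. It measured 56.0, 54.3 and 54.7 FPKM with miR-204-5p mimics and 69.4, 63.6 and 63.7 FPKM with control mimics. The treated libraries lay within a narrow band below all controls, with a ratio of 0.840 and a log2 fold change of -0.25 (SE 0.04, limma adjusted p = 0.00556). GABARAP, which lacks a match, gave -0.02 (95% interval -0.13 to 0.09, limma adjusted p = 0.739). GABARAPL1 gave -0.24 (limma adjusted p = 0.457), with control replicate 1 at 21.2 FPKM and the other 5 libraries at 10.8 to 13.8 FPKM.

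MAP1LC3B (ENSG00000140941), whose protein LC3B is the usual marker of autophagosomes, was not among the genes that fell. It measured 24.8, 15.4 and 23.9 FPKM with miR-204-5p mimics and 13.7, 18.6 and 18.7 FPKM with control mimics. The groups overlapped, since replicate 2 of the miR-204-5p mimics was below 2 of the 3 controls. The log2 fold change was 0.30 with a 95% interval of -0.18 to 0.78 (limma adjusted p = 0.283). Leaving out that library raised it to 0.50 and passed the threshold (limma adjusted p = 0.0460), and under the other 12 alternatives it ran from 0.16 to 0.37 without a call. A decrease in RNA of more than 0.18 on the log2 scale lies outside the 95% interval, which reflects only the spread between these libraries. LC3B protein was not measured in these data.

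MAP1LC3B2 measured 2.74, 1.44 and 2.08 FPKM with miR-204-5p mimics and 2.18, 1.79 and 1.53 FPKM with control mimics. Its groups overlapped as well, with a log2 fold change of 0.11 (95% interval -0.29 to 0.51, limma adjusted p = 0.650). The coding sequences of the pair are 375 bases each and differ at 2 of them (99.5% identity), so the division of reads between these paralogs is uncertain. MAP1LC3A rested on 1.24 to 2.68 inferred fragments a library, too few to show a change.

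**Figure D3:**
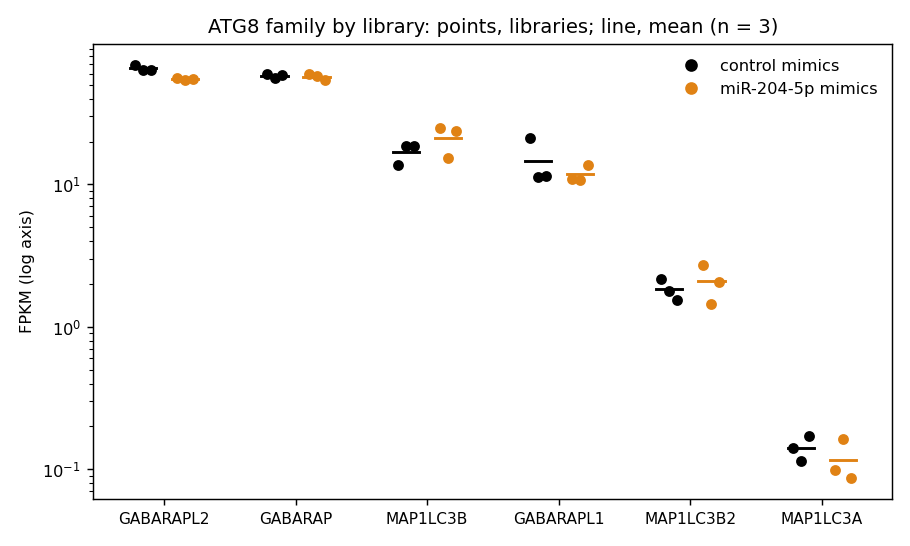
FPKM of the 6 ATG8 genes in each library (points, logarithmic vertical axis) with the mean of each group (lines, n = 3), ordered by their level with control mimics. GABARAPL2 and GABARAP lie between 54.3 and 69.4 FPKM, MAP1LC3B and GABARAPL1 lie together between 10.8 and 24.8 FPKM, and MAP1LC3A reaches at most 0.170 FPKM.

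Of the 7 cargo receptor genes, TBK1 counted among them, 2 (28.6%) were called lower and 0 higher. Over all genes 16.8% were lower and 23.9% higher, and among those averaging at least 1 FPKM 20.1% and 27.7%. No test of the group was run. NBR1, a ubiquitin-binding receptor that also carries 3 seed matches, measured 17.8, 17.9 and 17.7 FPKM with miR-204-5p mimics and 23.5, 24.7 and 26.0 FPKM with control mimics. The treated libraries were nearly equal and all below the controls, with a ratio of 0.721 and a log2 fold change of -0.45 (SE 0.05, limma adjusted p = 0.000626). OPTN, the receptor that TBK1 phosphorylates, measured 23.8, 22.2 and 22.4 FPKM against 29.6, 30.8 and 32.5 FPKM. Again no library crossed between groups, with a log2 fold change of -0.42 (SE 0.05, limma adjusted p = 0.00102), and no match of 7 bases was found for OPTN.

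SQSTM1 (p62), the most abundant member, averaged 113 ± 2.4 FPKM in the treated libraries and 118 ± 6.7 FPKM in the controls (SD, n = 3 each). The log2 fold change was -0.06 with a 95% interval of -0.18 to 0.06 (limma adjusted p = 0.384). TAX1BP1 gave 0.16 (limma adjusted p = 0.0659), CALCOCO2 (NDP52) -0.02 (limma adjusted p = 0.922) and the kinase TBK1 -0.03 (limma adjusted p = 0.648). TOLLIP gave -0.25 (limma adjusted p = 0.553) with a wide interval, since 1 library of each group was low, at 7.31 FPKM with miR-204-5p mimics and 8.74 FPKM with control mimics, while the other 4 ran from 13.1 to 16.8 FPKM.

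Genes of mitophagy and of fusion gave no call. PINK1, the kinase that marks damaged mitochondria, gave 0.14 (limma adjusted p = 0.0737), and FUNDC1, a receptor in the outer mitochondrial membrane, gave 0.27 (limma adjusted p = 0.0860). STX17, the SNARE of the autophagosome, gave 0.07, and the tether EPG5 gave 0.11 (limma adjusted p = 0.455 and 0.281).

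Read by class of seed match, members with a match split in both directions. Of the 13 with a match, 4 were called lower (GABARAPL2, NBR1, ATG9A and WIPI2), 1 was called higher (ATG7) and 8 were not called. Of the 32 without one, 5 were called lower and 5 higher. Over all genes of the table, 27.0% of those with a match and 13.5% of those without were called lower, so the split of 30.8% and 15.6% among members lies near the whole table. The median log2 fold change was -0.02 both in the 13 members with a match and in the 32 without. Over all genes it was -0.03 with a match and 0.06 without. Among the 4 members with an 8mer it was -0.17, against -0.08 in the 1261 genes with an 8mer. The 6 with a 7mer-m8 gave a median of 0.10, against -0.03 in the 1442 genes of that class. In 4 of those 6 (MAP1LC3B, MAP1LC3B2, ATG10 and ATG2B) the value was above 0, and none of the 4 was called. MAP1LC3B and MAP1LC3B2 are near-identical paralogs, and the site of ATG10 lies outside its listed transcript. These counts are a description, since a match of letters does not show that a site is used.

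**Figure D4:**
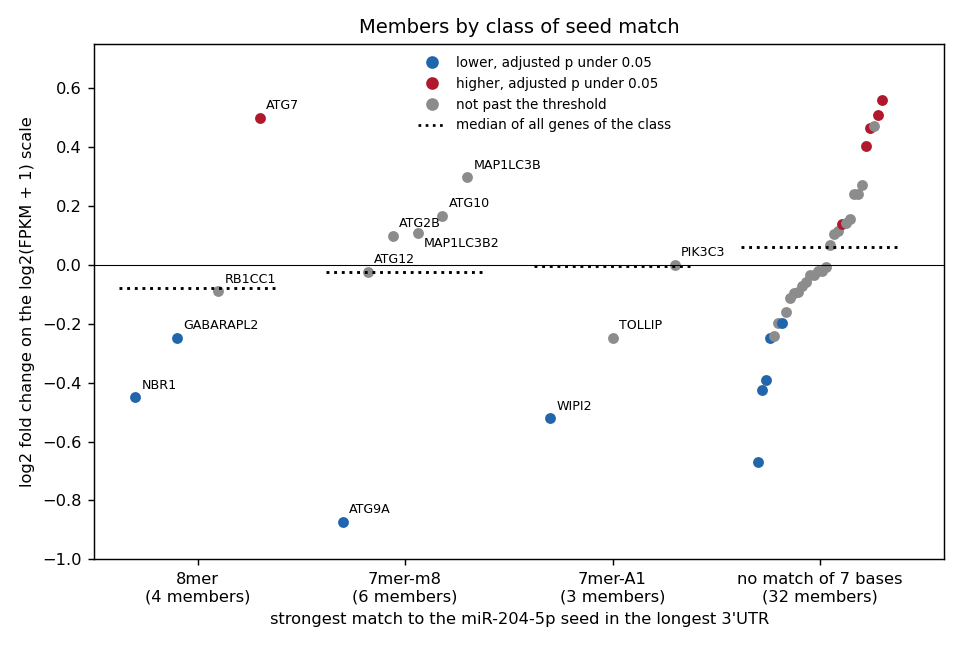
Log2 fold change on the log2(FPKM + 1) scale (vertical axis) of the members by the strongest seed match in their longest 3'UTR, with the median of all genes of each class as a dotted line. NBR1 and GABARAPL2 lie below the line of the 8mer class and ATG7 above it, ATG9A is lowest in the 7mer-m8 class, and MAP1LC3B is highest there.

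A property that the gene list did not use was the transcript on which the table lists each gene. For 17 members it is the longest annotated transcript, for 4 (WIPI1, ATG4D, GABARAPL1 and ATG9A) it is a nonsense-mediated decay form, and for 6 it is a protein-coding fragment with no annotated 3'UTR. Of the 11 members listed on a transcript under 50% as long as their longest, 4 were called higher (WIPI1, ATG4C, ATG7 and ATG16L1, on 624, 603, 972 and 589 bases) and 2 lower (ATG13 and GABARAPL2). Of the other 34, 2 were called higher and 7 lower. Over all genes, 25.0% of those on a short listed transcript and 23.7% of the others were called higher, and 14.5% and 17.4% lower. Whether the 4 rises concern whole genes or the listed forms was not tested.

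Beyond the members, a list of 37 further autophagy genes was read in the same fit, and all 37 were in the table. In it 13 (35.1%, against 40.8% of all genes) were called. Of these, 9 (24.3%, against 16.8%) were lower and 4 (10.8%, against 23.9%) higher. Among all genes that averaged at least 1 FPKM, 20.1% were called lower and 27.7% higher. With scaling by the median of ratios 12 were lower and 3 higher, and over all genes 3032 and 3019. The largest fall was NRBF2, a subunit of the ATG14 form of the class III PI3K complex. It measured 10.9, 9.57 and 8.81 FPKM with miR-204-5p mimics and 24.4, 24.5 and 26.0 FPKM with control mimics. Treated libraries reached no more than 10.9 FPKM, with a ratio of 0.392 and a log2 fold change of -1.27 (SE 0.08, limma adjusted p = 0.000106), larger in size than that of any member. NRBF2 holds an 8mer in exon 3 of 3 (chr10:63154289-63154296, plus strand, GRCh38), 71 bases into its 3'UTR.
NRBF2: aaaagaaatgaAAAGGGAAaaccacataga

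BNIP3, a mitophagy receptor, averaged 24.3 ± 0.90 FPKM in the controls and 15.5 ± 2.1 FPKM in the treated libraries (SD, n = 3 each), a change of -0.63 on the log2 scale (limma adjusted p = 0.00232). WDFY3 (ALFY), an adaptor for protein aggregates with a 7mer-m8 match, averaged 7.70 ± 0.11 FPKM and 4.77 ± 0.49 FPKM (SD, n = 3 each), a change of -0.60 (limma adjusted p = 0.00126). The lower calls also took in VAMP8, the SNARE partner of STX17, at -0.38, TFEB, a transcription factor of lysosome and autophagy genes, at -0.37, the WIPI protein WDR45B at -0.29 and RUBCN, an inhibitor of the UVRAG complex with an 8mer, at -0.29. ATG16L2, a paralog of ATG16L1, averaged 5.44 ± 0.68 FPKM in the controls and 8.32 ± 0.30 FPKM in the treated libraries (SD, n = 3 each), a rise of 0.54 (limma adjusted p = 0.00315). TECPR1 and FOXO3 rose by 0.32 and 0.22 (limma adjusted p = 0.00728 and 0.0309). The call of FOXO3 was lost in 7 of 13 alternatives, with limma adjusted p-values up to 0.0895. Of the 6 transcription regulators on this list, 1 was called lower (TFEB), 2 higher (FOXO3 and MITF) and 3 were not called. Over all genes 40.8% were called, with 16.8% lower and 23.9% higher, and 47.8% of those averaging at least 1 FPKM were called. No test of this group was run, and its counts do not set the regulators apart from the table. MITF rose by 0.39 (limma adjusted p = 0.0011), from 0.565 FPKM in the controls to 1.05 FPKM in the treated libraries on average.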

How the data were processed

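RNA of UM-SCC1 cells given mimics of miR-204-5p or of a control (n = 3 each) was isolated with the miRNeasy kit, and Illumina TruSeq libraries were sequenced by the authors. The deposited values are FPKM per gene, made by the authors; the submitters' processing notes name HISAT2, StringTie and hg38. Versions, annotation, use of strand and the transcripts summed for a gene are not given in the sources used here. The authors' own log2 ratios, p-values and FDR in the table were not used.

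All 14959 genes were compared on log2(FPKM + 1) with limma 3.58.1 (lmFit, eBayes with trend) in R 4.3.3, two-sided, with Benjamini-Hochberg adjustment at 0.05. The study used edgeR, which needs counts that are not analysed here. Simulated data were used only to check that the fit returned known fold changes, so they do not bear on the calls made here. Positions and 3'UTRs came from GENCODE 29, in which the listed transcripts of all 45 members have the same coordinates; miRNA sequences came from RefSeq. Depth was inferred from the step of low FPKM values times length: 28.4% to 33.9% of low values were whole multiples within 0.05, against 8.38% to 9.04% at other steps, so counts could not be recovered and inferred fragments are approximate.

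Members, roles and the further list were chosen with earlier results of these data known. Any member could be named; values per library are given for called members without overlap and a mean of at least 1 FPKM, for MAP1LC3B and its paralog, and for a few others chosen after their values were seen. Of the further genes, the 3 largest changes in each direction at a mean of at least 1 FPKM were named. VAMP8, TFEB, WDR45B, RUBCN and MITF were added after their values were seen. Alternatives were a pseudocount of 0.1, genes averaging at least 1 FPKM, the replicate number as a block, 3 scalings, eBayes without trend, each library left out and other 3'UTR choices. Other steps used Python 3.11.15 with numpy 2.4.6 and pandas 2.3.3.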

Additional observations from a re-analysis of the deposited data

How the results depend on the processing

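Of the 15 called members, 13 were called in the same direction in all 13 alternatives, and the exceptions were ATG4B and AMBRA1. No called member changed sign, and 9 members that were not called did so in at least 1 alternative. Called members numbered 14 to 18 with 1 library left out and 13 to 16 in the other alternatives. Without replicate 3 of the miR-204-5p mimics, ULK1 (-0.24), ATG2A (-0.26), VMP1 (0.61) and FUNDC1 (0.36) were called as well. Other members called in some alternative were ULK2 (0.29 with a pseudocount of 0.1), RB1CC1 (-0.14 with median of ratios), ATG2A (-0.24 and -0.25 with equal sums and median of ratios), VMP1 and MAP1LC3B. The median log2 fold change of the members was -0.063 with scaling to equal sums, -0.072 with median of ratios and -0.046 with quantile normalization, and it ran from -0.043 to 0.0094 with 1 library left out. These scalings moved the median of all genes from 0.032 to between -6.985e-05 and 0.0088, and lower calls over all genes from 41.3% to between 48.4% and 50.1% of calls. With the 3'UTR of the listed transcript in place of the longest, 10 members held a seed match.

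With the replicate block, 13 members and 5096 genes were called, against 15 and 6098 without it, and the calls lost were AMBRA1 (-0.39, limma adjusted p = 0.0509) and ATG4B (0.14, limma adjusted p = 0.0889). Deviations of same-numbered libraries correlated at -0.040, -0.021 and -0.108, so the numbers were not taken to pair the libraries. Depth limits MAP1LC3A and ATG10, which rest on few fragments.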
